A study of Mus musculus with 22 samples.

Results

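The genes described here are 7 mouse relatives of PRAME: Pramel6, Pramel7, Pramef6, Pramef8, Pramef12, Pramef17 and Pramef25. They are 7 of 55487 genes in each of 2 deposited RNA abundance tables. They were listed by name, through the symbols that GENCODE M21 (GRCm38) gives their Ensembl identifiers. Earlier results of these data were known when the list was made, so the choice was not blind to the data. All 7 were found in both tables and passed the filter on low values in both. RNA was sequenced from Dux-/- mouse embryonic stem cells, a line without the endogenous Dux gene, kept in 2iLIF, a medium with kinase inhibitors and the cytokine LIF. Every group, controls included, carried a transgene and received doxycycline at 0.25 ug/mL for 12 hours, starting 24 hours after plating. The transgenes coded for mCherry, a red fluorescent protein, alone or joined to DUX, a homeodomain transcription factor that activates 2-cell embryo genes, or to a derivative of DUX.

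The chimera table holds 14 libraries of 7 groups with 2 replicates each: FL (tagged full-length DUX), the tagged derivatives C3+14, C1C3a, C1C3b, C1C3c and C1+14, and mCherry (the tag alone). The deletion table holds 8 libraries of 4 groups: the same FL libraries, C12345delt14, deltC12345+14 and deltC12345delt14. The names are those of the labels, which do not spell out C1 to C5, 14, delt or the letters a, b and c. C3delt14 was not analysed here. Whether each line was a single clone, and whether replicates were separate cultures, is not given in the sources used here, so p-values measure only the spread between these libraries, which may be technical. The tables were scaled separately, and groups were compared only within a table.

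PRAME-like proteins are built of leucine-rich repeats and form a large family in the mouse, with most genes in tandem clusters. PRAME itself is a substrate receptor of Cullin 2 ubiquitin ligases. The protein of Pramel7 is known from the inner cell mass, where it directs UHRF1, the partner of the maintenance methyltransferase DNMT1, to degradation. Pramel6 and Pramel7 are also known as genes that can sustain self-renewal of embryonic stem cells downstream of LIF and STAT3, and Pramef12 is known from spermatogonial stem cells.

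Library totals lay between 21059953 and 40448890 reads. Duxf3 and Gm4981, the endogenous Dux locus, had 0 reads in each library, so they do not check which transgene a library carried. The 8 embryonic stem cell markers examined (Pou5f1, Sox2, Nanog and others) were above 3 reads in all groups. Their summed level, in normalised reads (defined below), was highest in mCherry in the chimera table, at 88609 and 88944. It was 38589 and 54797 in FL, 46370 and 43142 in C3+14, 32276 and 29445 in C1C3b, and 43147 to 66711 in the other groups. In the deletion table it was 47461 and 68543 in FL, 68050 and 91246 in C12345delt14, and 104360 to 125410 in the other groups. Its part in the levels of the members was not tested. The 6 markers of the 2-cell-like state were above 3 reads in FL, C3+14, C1C3a, C1C3b and C12345delt14 and none was in mCherry or deltC12345+14. Markers of trophectoderm, primitive endoderm and fibroblasts, 6 each, were also measured: 4 to 6, 5 to 6 and 2 to 6 of them were above 3 reads in a group. The libraries fell into 2 kinds by the share of reads in 1620 genes that have many near-identical copies. In the chimera table type A libraries had 1.66% to 2.15% there and type B libraries 0.295% to 0.341%, and in the deletion table the ranges were 1.91% to 2.58% and 0.393% to 0.421%. Both mCherry and both C3+14 libraries were type B, whereas C1+14, FL, C12345delt14 and the 3 constructs named C1C3 were type A. The constructs deltC12345+14 and deltC12345delt14 had 1 library of each type. A difference between a type A group and mCherry therefore cannot be told apart from a difference between types, so each such construct is also set against C1+14, the type A construct of that table with the fewest 2-cell markers above 3 reads (2 of 6). None of the 5 members with reads in deltC12345+14 and deltC12345delt14 was higher in the type A library of both, and 1, Pramef12, was higher in the type B library of both. With 1 library of each type in a construct, type and replicate cannot be told apart there, so this does not measure an effect of type. Pramef6 and Pramef25, at 0 reads in those libraries, could not be compared. In bulk RNA, fewer responding cells and less RNA per cell cannot be told apart.

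Pramel6 (ENSMUSG00000025838, chromosome 2, 87506565 to 87510872, plus strand) and Pramel7 (ENSMUSG00000025839, chromosome 2, 87489087 to 87497093, minus strand) are neighbours. The other 5 lie on chromosome 4. They are Pramef8 (ENSMUSG00000046862, 143412426 to 143421091, plus strand), Pramef6 (ENSMUSG00000078512, 143894237 to 143900380), Pramef25 (ENSMUSG00000078511, 143948580 to 143951016), Pramef17 (ENSMUSG00000078509, 143991119 to 143994369) and Pramef12 (ENSMUSG00000028591, 144391674 to 144408464), the last 4 on the minus strand. How far a gene can be read by itself depends on sequence shared with copies, measured as the percent of its 50-base words that occur in another gene. It was 0% in Pramel6, Pramef8 and Pramef12 and 1.05% in Pramel7. Pramef6 shared 36.9%, most with Gm13083, Pramef25 shared 63.3%, most with Gm13043, and Pramef17 shared 73.3%, all with Gm13128. The levels of these last 3 are uncertain, since how the authors counted reads with several matches is not given in the sources used here. Pramef12 overlaps Pramef12os on the opposite strand. The kit was stranded, but whether counting used strand is not given in the sources used here.

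Values are normalised reads, that is reads divided by 1 size factor per library, and errors are the SD of the 2 replicates. A gene is called higher or lower at an adjusted p under 0.05 and a change of at least 2-fold, by limma on log2(value + 1) with Benjamini-Hochberg adjustment over all genes tested. Log2 fold changes are on that scale, which understates changes of low genes, and carry their standard error (SE). For 1 gene with 2 libraries in each group, the smallest p of an exact permutation test is 0.333. Where a group had 0 reads in both libraries, the fold was computed against 3 reads per library and is given as at least that fold, which covers counting error only. The comparisons with mCherry share the mCherry libraries, those with FL share the FL libraries and those with C1+14 share the C1+14 libraries.

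**Figure D1:**
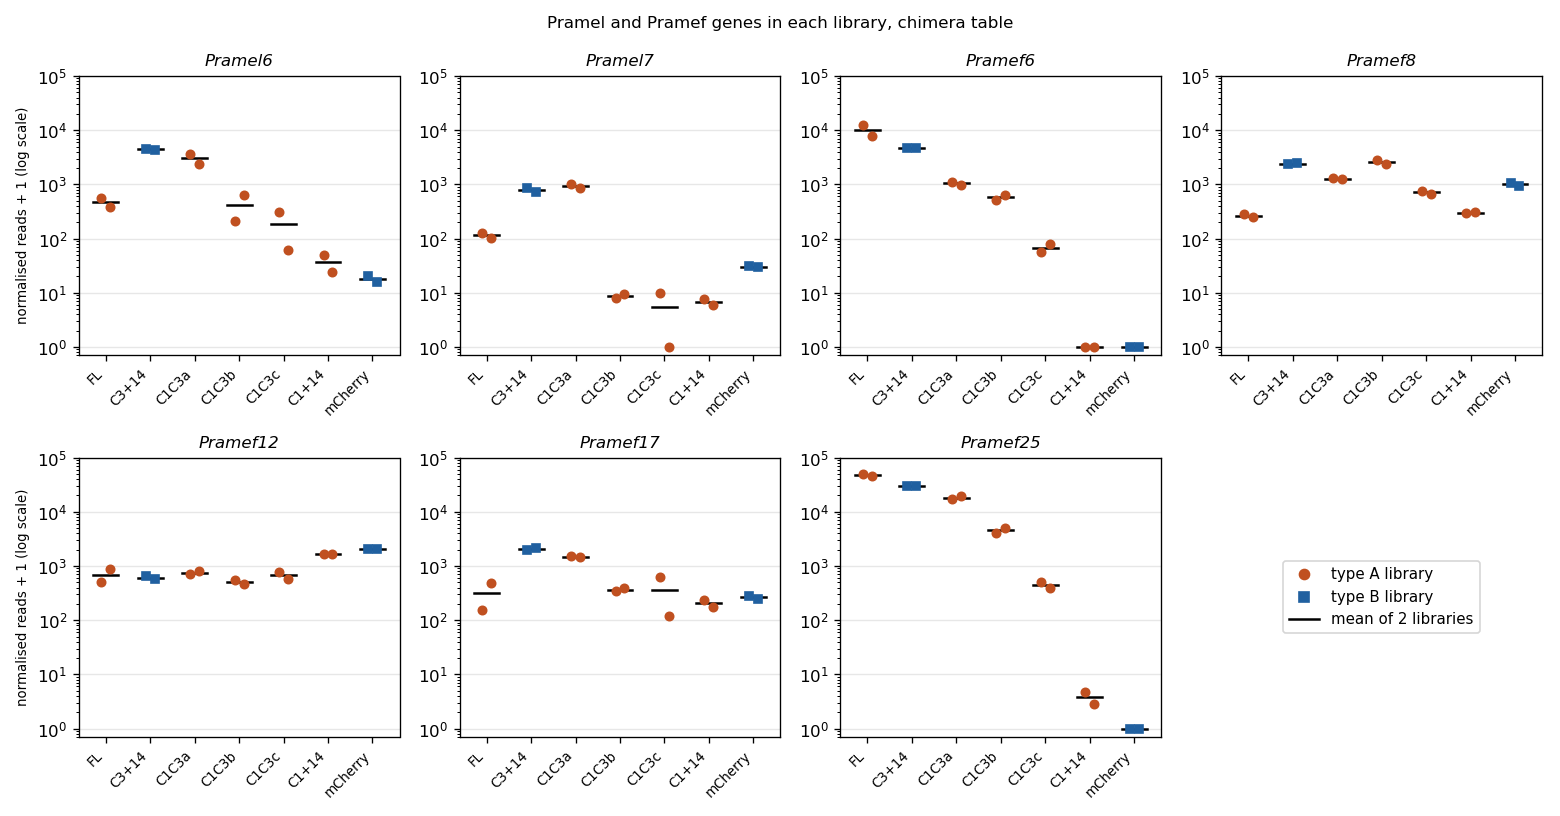
Normalised reads + 1 (vertical axis, log scale) of each gene in each of the 14 libraries of the chimera table, by group (horizontal axis); circles are type A and squares type B libraries, bars are means of 2 libraries. Pramef6 and Pramef25 are highest in FL and at 0 in mCherry, Pramel6, Pramel7 and Pramef17 are highest in C3+14 and C1C3a, and Pramef12 is highest in mCherry.

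Pramel6, one of the genes tied to LIF and STAT3, was lowest in mCherry and highest in C3+14. It had 19.1 and 14.6 normalised reads in the mCherry libraries, 566 and 383 in FL, 4473 and 4376 in C3+14, and 3690 and 2332 in C1C3a. It had 210 and 623 in C1C3b and 307 and 60.2 in C1C3c, and in C1+14 it had 49.0 and 23.6. No library of FL, C3+14, C1C3a, C1C3b or C1C3c overlapped the mCherry libraries. Pramel6 was 28.1-fold higher in FL than in mCherry (474.5 ± 129 against 16.9 ± 3.22, n = 2; log2 fold change 4.72, SE 0.63, limma adjusted p 2.73e-05). The log2 fold change was 7.96 in C3+14, 7.37 in C1C3a, 4.36 in C1C3b and 2.95 in C1C3c (SE 0.63 each), all called. C3+14 and mCherry are of the same library type. In C1+14 it was 0.98 (SE 0.63, limma adjusted p 0.268), short of the threshold. Against C1+14, within type A, the log2 fold change of Pramel6 was 3.74 in FL, 6.39 in C1C3a and 3.37 in C1C3b, all called, and 1.97 in C1C3c (limma adjusted p 0.0540). That last difference was past the threshold by edgeR, at 2.33 (adjusted p 0.0300), by DESeq2, and without C1C3c replicate 2, the library with 60.2, at 3.14 (limma adjusted p 0.00870), or without C1+14 replicate 1, at 2.48 (0.0479).

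Pramel7, the gene whose protein targets UHRF1, was raised most in C1C3a and C3+14 and lay below the mCherry level in C1C3b, C1C3c and C1+14. It had 128 and 104 normalised reads in FL, 868 and 719 in C3+14, and 1022 and 845 in C1C3a. The mCherry libraries had 29.7 and 29.2, C1+14 had 6.58 and 4.96, C1C3b had 7.02 and 8.45, and C1C3c had 9.05 and 0. Both C3+14 and both C1C3a libraries were thus above every FL library, and all C1C3b, C1C3c and C1+14 libraries were below both mCherry libraries. Against mCherry the log2 fold change was 4.70 in C3+14 (SE 0.72, limma adjusted p 8.71e-05), 4.93 in C1C3a and 1.93 in FL (adjusted p 0.0335). It was -1.81 in C1C3b (adjusted p 0.0449), -3.26 in C1C3c (0.00262) and -2.18 in C1+14 (0.0357), all with SE 0.72. The calls in FL, C1C3b and C1+14 did not hold when any 1 of the 4 libraries compared was left out, where limma adjusted p ran from 0.0750 to 0.130, from 0.102 to 0.148 and from 0.0792 to 0.136. These 3 calls were also lost with a pseudocount of 0.1 (0.255, 0.268 and 0.247) and with no filter on low values (0.0668, 0.0837 and 0.0766), and that in C1C3b with size factors from genes without shared sequence (0.0558). Within type A, against C1+14, Pramel7 rose by 4.11 in FL (SE 0.72, limma adjusted p 0.000330) and by 7.11 in C1C3a, and was not called in C1C3b (0.37, adjusted p 0.711) or C1C3c (-1.08, adjusted p 0.365). Without C1C3c replicate 1 the C1C3c difference was -2.75 (limma adjusted p 0.000663), where the remaining library had 0 reads.

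Pramef25 and Pramef6, 2 genes of the chromosome 4 cluster, had 0 reads in both mCherry libraries, so they passed the filter only through the constructs in which they were present. Pramef25 had 50423 and 46096 normalised reads in FL, 30076 and 30122 in C3+14, 17073 and 19586 in C1C3a, 4068 and 5124 in C1C3b, falling to 511 and 385 in C1C3c. Pramef6 had 12522 and 7872 in FL, 4618 and 4710 in C3+14, 1114 and 964 in C1C3a, 506 and 640 in C1C3b, with 55.0 and 79.8 left in C1C3c. Both genes had the same order of these 5 groups, with no overlap between neighbours. The summed level of the 6 markers of the 2-cell-like state also fell in that order from FL and C3+14 (724971 to 1355140 normalised reads) through C1C3a (323957 to 476214) to C1C3b (13384 to 18930) and C1C3c (823 to 897), and its part in these levels was not tested. FL was at least 21199-fold above mCherry in Pramef25 and at least 4479-fold in Pramef6, and C3+14, of the same library type as mCherry, was at least 13222-fold and 2049-fold higher. In C1+14, Pramef6 had 0 reads in both libraries and Pramef25 had 5 and 3. The Pramef25 difference between C1+14 and mCherry was called (limma adjusted p 3.71e-05), but it is at least 1.21-fold only, and it was not called with a pseudocount of 8 (limma adjusted p 0.0571). Since both share sequence with genes of the same cluster, their reads cannot be assigned to single genes with certainty.

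Pramef17 was present in mCherry and was raised in C3+14 and C1C3a only among the groups compared with mCherry by limma. It had 282 and 249 normalised reads in mCherry, 153 and 475 in FL, 1989 and 2164 in C3+14, 1498 and 1468 in C1C3a, and 238 and 175 in C1+14. C1C3b had 339 and 390, and C1C3c 614 and 117. The FL and C1C3c libraries spread on both sides of mCherry. Its log2 fold change against mCherry was 2.97 in C3+14 (SE 0.59, limma adjusted p 0.000668) and 2.48 in C1C3a (adjusted p 0.00245). In FL it was 0.03 (adjusted p 0.979), and its sign there changed with the FL library left out, from -0.78 without replicate 2 to 0.84 without replicate 1. Within type A, against C1+14, the log2 difference of Pramef17 was 2.85 in C1C3a (SE 0.59, limma adjusted p 0.00106), 0.83 in C1C3b (0.273), 0.39 in C1C3c (0.733) and 0.40 in FL (0.584). Gm13128, which shares its sequence, had the same order of high and low libraries in FL and C1C3c, with 205 and 619 in FL and 829 and 170 in C1C3c.

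Pramef8 was expressed in every group and was lowest in FL and C1+14. It had 1039 and 953 normalised reads in mCherry, 280 and 249 in FL, 2398 and 2438 in C3+14, 1293 and 1246 in C1C3a, 290 and 308 in C1+14, 764 and 672 in C1C3c, and 2834 and 2329 in C1C3b. Against mCherry its log2 fold change was 1.28 in C3+14 (SE 0.13, limma adjusted p 2.98e-06) and 1.37 in C1C3b, and it was lower in FL at -1.91 (adjusted p 6.63e-08) and C1+14 at -1.73. C1C3a (0.35) and C1C3c (-0.47) stayed short of 2-fold. Within type A, against C1+14, Pramef8 was not called in FL (-0.18, limma adjusted p 0.273) and was higher by 2.08 in C1C3a, 3.10 in C1C3b and 1.26 in C1C3c (SE 0.13 each). Of the 7 genes, Pramef8 alone had its highest mean in C1C3b, where its 2 libraries overlapped those of C3+14 (log2 difference of C3+14 from C1C3b -0.09, limma adjusted p 0.619).

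Pramef12 was the one member that was highest in mCherry and fell in FL, C3+14 and the C1C3 constructs. Its values were 2089 and 2052 normalised reads in mCherry, 1642 and 1658 in C1+14, 499 and 865 in FL, 645 and 573 in C3+14, and, in the C1C3 constructs a, b and c, 697 and 813, 553 and 469, and 785 and 567. Every library of FL, C3+14 and the C1C3 chimeras was below every C1+14 and mCherry library. Against mCherry Pramef12 changed by -1.65 (FL), -1.77 (C3+14), -1.46 (C1C3a), -2.02 (C1C3b) and -1.63 (C1C3c) on the log2 scale (SE 0.22 each, all called by limma), and -0.33 in C1+14 (adjusted p 0.300). Against C1+14 it was -1.33 in FL (limma adjusted p 0.000226), -1.13 in C1C3a, -1.69 in C1C3b and -1.30 in C1C3c, all called, though C1C3a was at -0.97 and so short of 2-fold with size factors from genes without shared sequence. The antisense gene Pramef12os had 73.7 and 66.7 in FL against 11.2 in both mCherry libraries, and 5.53 and 1.42 in C1C3a.

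Counted together against mCherry, 4 of the 7 genes were called higher and 2 lower in FL, where limma called 24.5% of all genes higher and 19.6% lower. Pramef6 and Pramef25, at 0 reads in mCherry, could be called only higher in these counts, which are therefore a description only. Against C1+14 this also holds for Pramef6, at 0 reads there, while Pramef25 had 5 and 3 reads. In C3+14, 6 were higher and 1 lower (29.6% and 17.7% of all genes), and in C1C3a 5 were higher and 1 lower (27.4% and 19.0%). C1C3b had 4 higher and 2 lower (27.6% and 17.1%), C1C3c 3 and 2 (18.3% and 10.5%), and C1+14 1 and 2 (12.4% and 5.95%). Within type A, against C1+14, 4 were higher and 1 lower in FL (21.5% and 18.4% of all genes), 6 and 1 in C1C3a (23.4% and 17.3%), 4 and 1 in C1C3b (17.9% and 11.0%), and 3 and 1 in C1C3c (5.37% and 2.46%). The median log2 fold change of the 7 against mCherry was 1.93 in FL, 4.70 in C3+14 and 4.93 in C1C3a, beside 0.09, 0.23 and 0.12 over all genes tested. Setting Pramef6 and Pramef25, at 0 reads in mCherry, to their bound could not move this median, since both stay above it. Scaling moved all genes: quantile normalization lowered the median of all genes by 0.36, 0.48 and 0.44 in the same comparisons, and under it Pramel7 in FL against mCherry was no longer called (log2 fold change 1.35, limma adjusted p 0.140).

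C3+14 and C1C3a were next set against FL, and the 7 genes divided. Pramel6, Pramel7, Pramef8 and Pramef17 were higher than in FL in both constructs, Pramef6 was lower in both, Pramef25 was lower in C1C3a, and Pramef12 was called in neither. The log2 differences of C3+14 from FL were 3.25 in Pramel6 (SE 0.63, limma adjusted p 0.00129), 2.77 in Pramel7 (SE 0.72, 0.00825), 3.19 in Pramef8 (SE 0.13, 2.35e-09) and 2.94 in Pramef17 (SE 0.59, 0.00156). In means these were 9.32-fold, 6.85-fold, 9.14-fold and 6.61-fold. Pramef6 was at -1.09 (SE 0.26, adjusted p 0.00489), Pramef25 at -0.68 (SE 0.21, 0.0201) and Pramef12 at -0.11 (SE 0.22, 0.718). C3+14 thus had 4 of 7 genes higher and 1 lower than FL, where limma called 16.8% of all genes higher and 9.54% lower. C3+14 and FL differ in library type. With quantile normalization Pramef6 was at -0.85 and so short of 2-fold. The summed level of 6 primitive endoderm markers was also higher in C3+14 (601 to 628 normalised reads) and C1C3a (364 to 648) than in FL (92.8 to 121), it was 603 to 641 in C1C3b, with Sox7 at or under 3 reads in FL and C3+14, and its part in these differences was not tested.

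C1C3a and FL are of the same type. C1C3a exceeded FL by 2.65 in Pramel6 (SE 0.63, limma adjusted p 0.00823), 3.0 in Pramel7 (SE 0.72, 0.00892), 2.26 in Pramef8 (SE 0.13, 4.64e-07) and 2.45 in Pramef17 (SE 0.59, 0.00864), and was below FL by -3.26 in Pramef6 (SE 0.26, 4.02e-06) and -1.40 in Pramef25 (SE 0.21, 0.000420). This made 4 of 7 higher and 2 lower, with 11.0% of all genes called higher and 4.62% lower. Pramef12 differed by 0.19 (adjusted p 0.570). Without C1C3a replicate 1, 3 of these 6 calls held, since Pramel6, Pramel7 and Pramef17 had limma adjusted p of 0.0759, 0.0622 and 0.0536. Without FL replicate 2 Pramel6 had 0.0516, and without FL replicate 1 Pramef17 had 0.104, with a log2 difference of 1.64. In C3+14 against FL, Pramef6 was at -0.76 (limma adjusted p 0.0666) without FL replicate 1, and Pramel7 at 2.63 (0.0551) without C3+14 replicate 1. With a pseudocount of 0.1 Pramel7 had 0.150 in C3+14 and 0.158 in C1C3a. Directions did not change in any of these. Between C3+14 and C1C3a themselves 1 of the 7 was higher in C3+14 and 0 were lower (7.38% and 7.52% of all genes). It was Pramef6, at a log2 difference of 2.17 (SE 0.26, limma adjusted p 7.67e-05). C3+14 and C1C3a differ in library type, so this cannot be told apart from a difference between types. Pramef6 also shares 36.9% of its 50-base words with other genes.

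**Figure D2:**
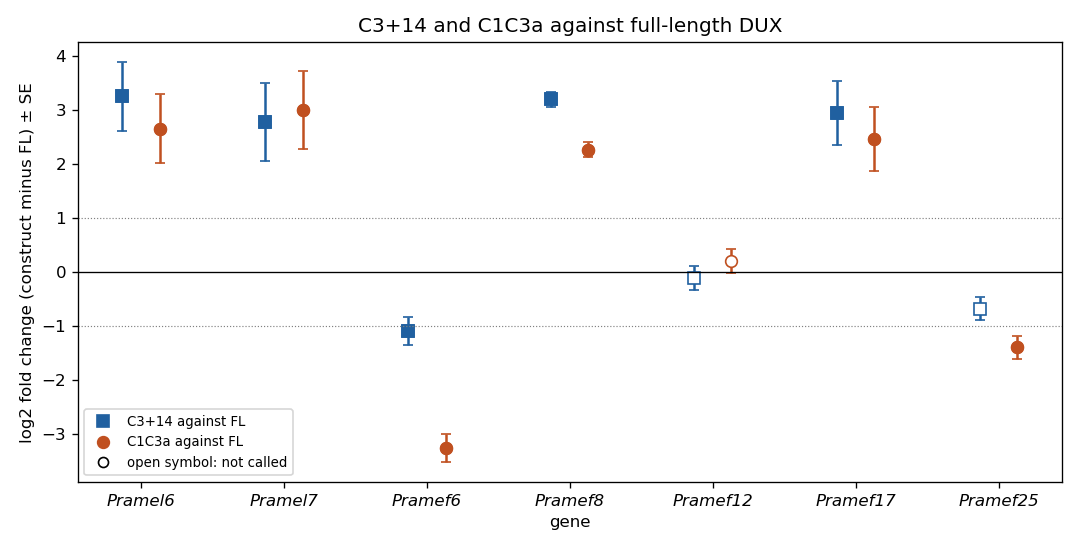
Log2 fold change of C3+14 (squares) and of C1C3a (circles) against FL for each gene, with SE bars; filled symbols are called by limma, open symbols are not, dotted lines mark 2-fold, and both comparisons share the FL libraries. Pramel6, Pramel7, Pramef8 and Pramef17 lie between 2.26 and 3.25, Pramef6 at -1.09 and -3.26, Pramef25 at -0.68 and -1.40, and Pramef12 near 0.

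Of the genes that exceeded FL in both constructs, Pramel7 and Pramef17 have similar sequence upstream of their starts, and their windows are shown for that reason. RefSeq windows (GRCm38.p6, 250 bases before to 50 after the start) were matched for 6 of the 7 genes, all but Pramef8. That of Pramel7 is chr2:87492369-87492668 and that of Pramef17 chr4:143994320-143994619, both on the minus strand and printed 5′ to 3′ in transcript direction. The Pramel7 start of RefSeq lies inside the longer GENCODE gene. Capitals mark stretches of at least 12 bases that are identical in a global alignment of the 2.
Pramel7: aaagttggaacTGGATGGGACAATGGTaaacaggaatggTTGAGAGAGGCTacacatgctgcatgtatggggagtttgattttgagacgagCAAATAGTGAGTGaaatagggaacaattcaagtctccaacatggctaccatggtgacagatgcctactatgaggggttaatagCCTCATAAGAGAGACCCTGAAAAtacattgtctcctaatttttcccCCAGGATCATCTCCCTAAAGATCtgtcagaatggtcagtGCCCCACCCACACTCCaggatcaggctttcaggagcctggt
Pramef17: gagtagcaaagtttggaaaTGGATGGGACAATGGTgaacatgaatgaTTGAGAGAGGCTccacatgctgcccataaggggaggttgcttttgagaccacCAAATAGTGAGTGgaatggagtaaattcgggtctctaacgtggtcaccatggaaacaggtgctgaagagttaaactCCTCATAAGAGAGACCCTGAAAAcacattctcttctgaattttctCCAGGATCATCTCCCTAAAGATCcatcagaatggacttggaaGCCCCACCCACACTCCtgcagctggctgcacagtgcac

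The Pramel7 and Pramef17 windows were identical at 234 of 311 alignment columns, 75.2%, in spite of lying on different chromosomes, and the 6 stretches in capitals hold 103 bases. The other 14 pairs of the 6 windows were 43.1% to 53.5% identical, with no stretch of that length. The longest stretches, CCTCATAAGAGAGACCCTGAAAA and CCAGGATCATCTCCCTAAAGATC, 23 bases each, each occur in 3 of 32851 RefSeq windows of the same length, those of Pramel7, Pramef17 and Gm13128. Gm13128, whose window is 97.3% identical to that of Pramef17 and 74.0% to that of Pramel7, was also higher than FL in C3+14 (log2 difference 3.09, SE 0.57, limma adjusted p 0.000884) and in C1C3a (2.58, 0.00535), although its reads are not independent of those of Pramef17. Over the 14 chimera libraries Pearson's r between Pramel7 and Pramef17 was 0.82 on log2(value + 1), a description over libraries that share constructs. The r was 0.83 between Pramel6 and Pramef17 and 0.77 between Pramel6 and Pramel7, pairs whose windows have no such stretch. The windows of Pramel6 and Pramel7 were the least identical pair, at 43.1%, although both genes exceeded FL in both constructs. Whether similar windows go with similar levels was not tested. The palindromic letters GATTNAATC, the core of the known DUX motif, searched on both strands, were in none of the 6 windows and in 88 of 32851 windows (0.268%).

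The other genes of the family show where the 7 stand. Of 41 further genes named Prame or Pramel in RefSeq, a list added after the files were seen, 37 were tested in the chimera table. In FL against mCherry 36 were higher and 0 lower (24.5% and 19.6% of all genes). In C3+14 36 were higher and 0 lower (29.6% and 17.7%), and in C1C3a 32 and 0 (27.4% and 19.0%). The median log2 fold change of the 37 was 9.69, 9.87 and 9.31, or 9.69, 9.08 and 8.29 with genes at 0 reads in mCherry set to their bound. Those with the largest changes in FL were BC080695, Gm12794 and Gm13119, with 56662 and 50548, 45058 and 35353, and 68919 and 69292 normalised reads in FL and at most 4 reads in a mCherry library. Of 12 genes whose GENCODE symbol begins with Prame or Oog, 7 of them also among the 41, 11 were tested. In FL 10 of them were higher and 0 lower than in mCherry, in C3+14 9 and 0, and in C1C3a 4 and 1 (Pramef12os), beside the same shares of all genes. Oog1, an oocyte gene, had the largest changes among these, with 367 and 579 normalised reads in FL, 1724 and 1814 in C3+14 and 1071 and 817 in C1C3a, and 0 and 1 reads in mCherry. Pramel5, the next in FL, had 306.5 and 305.9 in FL and 3 and 1 reads in mCherry. Within type A, against C1+14, 36 of the 37 were higher and 0 lower in FL (21.5% and 18.4% of all genes), and 32 and 1 in C1C3a (23.4% and 17.3%). Of the 11 by symbol, 10 and 0 were called in FL and 4 and 1 in C1C3a. C1+14 itself had 8 of the 37 higher and 0 lower than mCherry (12.4% and 5.95%). Of the 42 tested relatives of both lists, 32 had at most 3 reads in each mCherry library and passed the filter only through other groups. They could not be called lower than mCherry, and all these counts are a description only.

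The relatives were also set against FL, which has the library type of C1C3a but not that of C3+14. Differences of C3+14 from FL therefore cannot be told apart from a difference between types. Of the 37, 5 were called higher, 10 lower and 22 neither in C3+14 (16.8% of all genes higher and 9.54% lower), and 2 were higher, 21 lower and 14 neither in C1C3a (11.0% and 4.62%). Their medians were -0.58 and -2.08 beside 0.079 and 0.0058 over all genes. Of the 11 genes of the list by symbol, 4 were higher and 1 lower in C3+14, and 0 higher and 4 lower in C1C3a, with medians of -0.18 and -1.83. The 2 of the 37 that were higher in C1C3a were Gm13128 and C87977. C87977 had 13.3 and 10.7 normalised reads in FL, 288 and 326 in C3+14 and 193 and 69.4 in C1C3a, log2 differences of 4.57 (SE 0.50, limma adjusted p 1.60e-05) and 3.17 (adjusted p 0.000607). Unlike that of Gm13128, the window of C87977 was only 48.5% identical to that of Pramel7 and 45.2% to that of Pramef17. Over both lists, 28 of 42 tested relatives had negative log2 differences from FL in both constructs and 8 had positive ones in both. The windows of 33 relatives were matched, and 3 of them (9.09%), those of B020004J07Rik, BC080695 and Gm13119, held GATTNAATC. A match is a description of letters only.

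**Figure D3:**
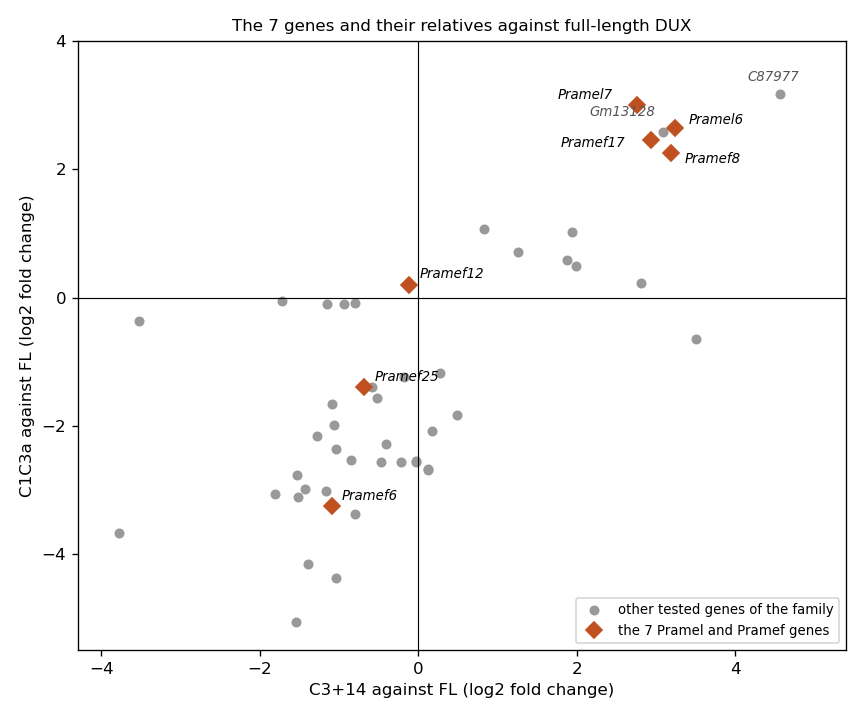
Log2 fold change against FL in C3+14 (horizontal) and C1C3a (vertical) for the 7 genes (diamonds) and 42 tested relatives (grey circles). Both axes use the same FL libraries, and FL and C1C3a are type A while C3+14 is type B. Pramel6, Pramel7, Pramef8 and Pramef17 lie in the upper right with C87977 and Gm13128, while Pramef6 and Pramef25 lie in the lower left with 28 relatives.

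The deletion table sets FL beside constructs with delt before 14, before C12345 or before both. Pramef25 and Pramef6 had 0 reads in both libraries of deltC12345+14 and of deltC12345delt14. Pramef25 had 62016 and 57660 normalised reads in FL and 47533 and 36222 in C12345delt14, and Pramef6 had 15401 and 9847 in FL and 3369 and 2364 in C12345delt14. FL was at least 28101-fold above deltC12345+14 in Pramef25 and at least 5928-fold in Pramef6. C12345delt14 was at least 16924-fold and 1158-fold above deltC12345delt14. C12345delt14 and FL did not overlap in either gene, and Pramef6 was called lower in it (log2 fold change -2.13, SE 0.36, limma adjusted p 0.0479), while Pramef25 was not (-0.53, SE 0.22, adjusted p 0.193). That was 1 of 7 lower and 0 higher, with 0.620% of all genes called lower and 0.338% higher. This call was lost with a pseudocount of 0.1 (limma adjusted p 0.102), with no filter on low values (0.0675) and with the replicate number as a block (0.0667), and without FL replicate 1, C12345delt14 replicate 1 or C12345delt14 replicate 2, where limma adjusted p was 0.236, 0.0941 and 0.320. The difference between FL and C12345delt14 and that between deltC12345+14 and deltC12345delt14 were compared by an interaction term, which did not pass the threshold in any of the 7 (limma adjusted p 0.312 to 0.691). For Pramef6 and Pramef25, at 0 reads in all 4 libraries of the second difference, this term only repeats the difference between FL and C12345delt14.

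Pramel6 and Pramel7 were also lower than in FL in both deltC12345 constructs. Pramel6 had 696 and 479 normalised reads in FL, 431 and 294 in C12345delt14, 94.7 and 52.4 in deltC12345+14, and 44.3 and 15.7 in deltC12345delt14. It was lower than in FL by -3.02 in deltC12345+14 (SE 0.52, limma adjusted p 0.00235) and -4.39 in deltC12345delt14 (0.000451). Pramel7 had 158 and 130 in FL, 49.2 and 25.4 in C12345delt14, 45.6 and 6.46 in deltC12345+14, and 23.8 and 10.8 in deltC12345delt14, and the deltC12345+14 libraries overlapped both those of C12345delt14 and those of deltC12345delt14. Its log2 difference from FL was -2.95 in deltC12345+14 (SE 0.85, limma adjusted p 0.0204) and -3.07 in deltC12345delt14 (0.0169), and -1.98 in C12345delt14 (0.196). Fitted with the 2 groups alone, Pramel7 had limma adjusted p of 0.0539 in deltC12345+14 and 0.0262 in C12345delt14. The Pramel7 calls did not hold without FL replicate 1 (0.104 and 0.0924), without FL replicate 2 (0.0703 and 0.0625), without deltC12345+14 replicate 2 (0.0909) or without deltC12345delt14 replicate 2 (0.0783).

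Pramef12 was called in the opposite direction, and Pramef8 and Pramef17 were not called. Pramef12 had 614 and 1082 normalised reads in FL, 905 and 1623 in C12345delt14, 1665 and 1910 in deltC12345+14, and 1909 and 1823 in deltC12345delt14. It was higher than in FL by 1.13 in deltC12345+14 (SE 0.32, limma adjusted p 0.0205) and 1.19 in deltC12345delt14 (0.0161). The first was lost without FL replicate 1 (log2 difference 0.72, adjusted p 0.139), without deltC12345+14 replicate 2 (0.0916) and with size factors from genes without shared sequence (0.95, short of 2-fold). The second was lost without FL replicate 1 (0.78, 0.113) and without deltC12345delt14 replicate 1 (0.0619). Pramef8 had 344 and 311 in FL, 453 and 662 in C12345delt14, 276 and 305 in deltC12345+14, and 317 and 381 in deltC12345delt14. Pramef17 had 188 and 594 in FL, 585 and 541 in C12345delt14, 803 and 325 in deltC12345+14, and 419 and 345 in deltC12345delt14.

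Counted over the 7, deltC12345+14 had 1 higher and 4 lower than FL (18.4% and 20.0% of all genes), and deltC12345delt14 had 1 and 4 (18.8% and 20.3%). C12345delt14 had 3 higher and 0 lower than deltC12345delt14 (12.6% and 9.40% of all genes). Pramef6 and Pramef25, at 0 reads in both deltC12345 constructs, are in each of these counts. They could be called only lower in those constructs than in FL, and only higher in C12345delt14 than in deltC12345delt14. Without FL replicate 1, 3 of the 5 calls in each of these comparisons with FL were made, and likewise 3 for deltC12345+14 without its replicate 2. With library type as a term in the fit, the numbers of members called in the 5 comparisons of this table were the same. Between deltC12345+14 and deltC12345delt14 limma called 0 of the 7 and 0 of all genes in either direction (0%). At an unadjusted p under 0.05 it had 543 genes, edgeR called 0 genes, and DESeq2 called 3 higher and 1 lower.

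**Figure D4:**
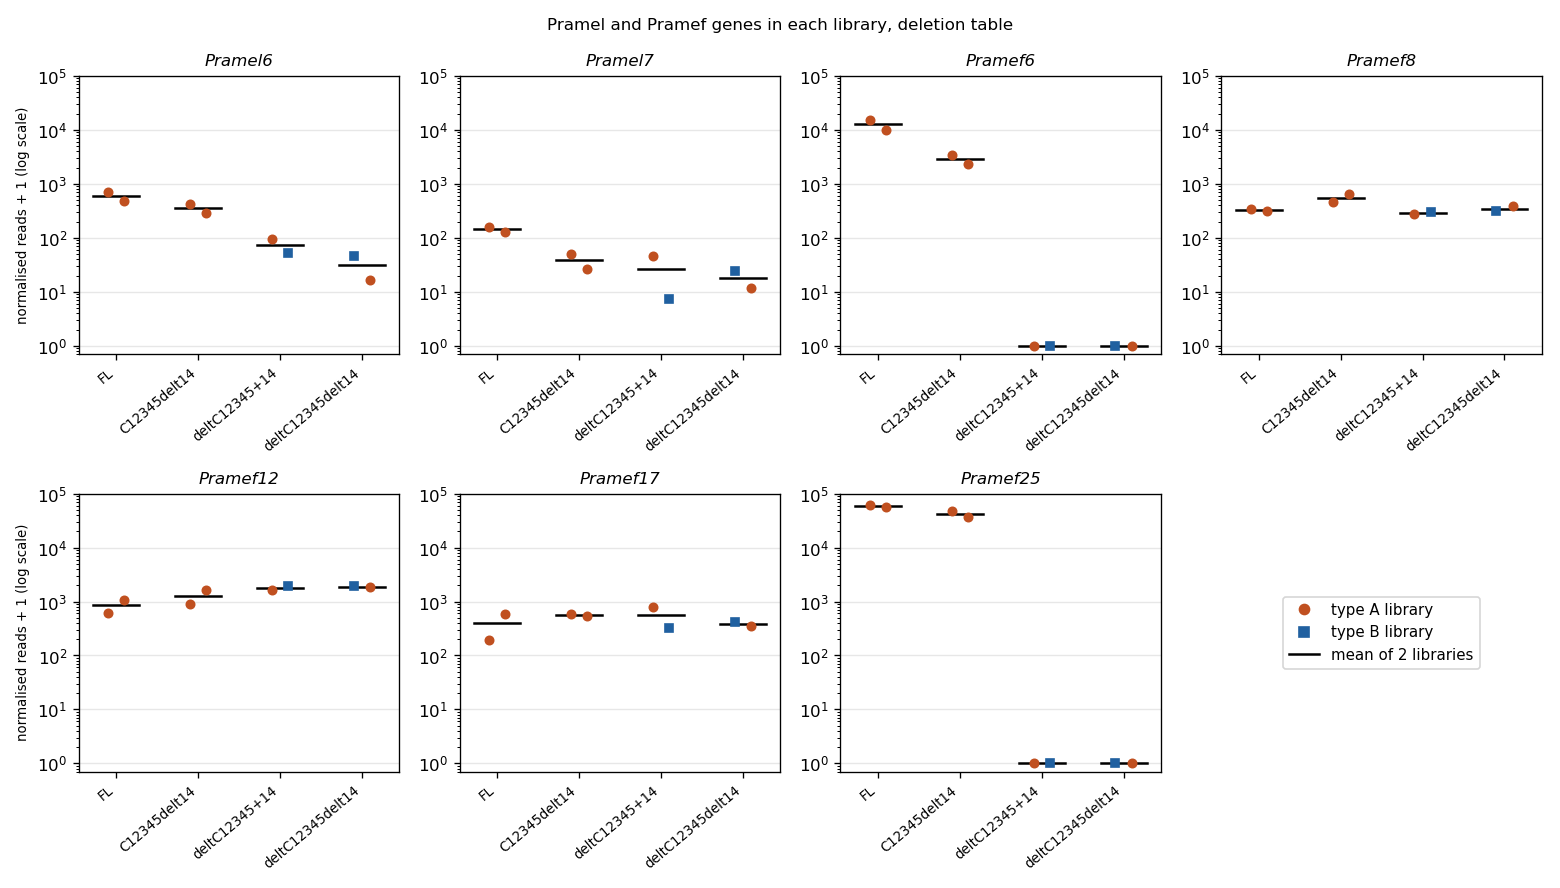
Normalised reads + 1 (vertical axis, log scale) of each gene in each of the 8 libraries of the deletion table, by group (horizontal axis); circles are type A and squares type B libraries, bars are means of 2 libraries. Pramef6 and Pramef25 are at 0 in all 4 libraries of deltC12345+14 and deltC12345delt14, and Pramef12 is highest in them by mean.

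Compared between genes, on normalised reads per kilobase of exon, the order of the 7 changed with the construct. In mCherry the order of mean levels was Pramef12 (805 per kb), Pramef8 (238), Pramef17 (151), Pramel7 (13.8) and Pramel6 (8.09), with Pramef6 and Pramef25 at 0. In FL it was Pramef25 (28658 per kb), Pramef6 (4886), Pramef12 (265), Pramel6 (228), Pramef17 (179), Pramef8 (63.3) and Pramel7 (54.3). In C3+14 Pramef25 (17874 per kb) and Pramef6 (2235) were followed by Pramel6 (2123). Between groups, on the scale of one gene, neighbours in the order that limma did not call were C3+14 and C1C3a, FL and C1C3b, C1C3b and C1C3c, C1C3c and C1+14, and C1+14 and mCherry in Pramel6. In Pramel7 they were C1C3a and C3+14, and C1C3b, C1+14 and C1C3c among themselves. In Pramef25 they were FL and C3+14, and C3+14 and C1C3a (0.72, SE 0.21, limma adjusted p 0.0265, short of 2-fold), and in Pramef6 they were C1C3a and C1C3b (0.86, SE 0.26, adjusted p 0.0132, short of 2-fold) and the 2 groups at 0.

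Genes of the Cullin 2 ligase and of the pathways tied to Pramel6 and Pramel7 were examined as a list of 14. In FL against mCherry 1 was higher and 3 lower (24.5% and 19.6% of all genes), in C3+14 1 and 4 (29.6% and 17.7%), and in C1C3a 3 and 3 (27.4% and 19.0%), with medians of 0.11, -0.52 and -0.19 beside 0.09, 0.23 and 0.12 over all genes. Il6st, the signalling subunit of the LIF receptor, had 1801 and 1906 normalised reads in mCherry, 203 and 277 in FL, 399 and 397 in C3+14, and 397 and 292 in C1C3a. Il6st changed by -2.96 on the log2 scale in FL, -2.22 in C3+14 and -2.44 in C1C3a. Stat3, the transcription factor downstream, fell by 1.57, 2.18 and 1.96 on the log2 scale, and Lifr, the other receptor subunit, fell by 1.80 in FL and 1.27 in C1C3a. Lifr was also below mCherry (1188 and 1162 normalised reads) in C1+14, at 657 and 780. Within type A, its level in C1C3a, at 511 and 463, was less than 2-fold below that in C1+14. Against C1+14, within type A, Il6st (-3.0) and Stat3 (-1.51) were also lower in FL. Lifr, at 292 and 387 normalised reads in FL, was likewise below the 657 and 780 of C1+14. In that comparison 1 of the 14 was called higher and 3 lower (21.5% and 18.4% of all genes). The genes Pramel6 and Pramel7 were higher than in mCherry in FL, C3+14 and C1C3a. In C1C3b, Stat3 (1139 and 1415 normalised reads) and Il6st (1102 and 1200) also lay below mCherry, with Pramel6 above mCherry there and Pramel7 below it. A relation between these levels was not tested. In C3+14 Dnmt3b and Dnmt3a, the de novo methyltransferases, were also lower, at -1.14 and -1.12.

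Of the ligase side, Eloc, an adaptor between receptor and cullin, was higher by 1.75 in C3+14 and 1.36 in C1C3a. Within type A, Eloc had 3866 and 3171 normalised reads in FL and 4661 and 5147 in C1C3a, above the 1755 and 1591 of C1+14. Cul2, the cullin, was not called, at -0.05 in FL, 0.08 in C3+14 and -0.05 in C1C3a (SE 0.14 each). Uhrf1, whose protein is the known target of the Pramel7 protein, had 8719 and 9037 normalised reads in mCherry, 12385 and 16594 in FL, and 17002 and 21304 in C1C3a. It was higher in C1C3a by 1.10 against mCherry (SE 0.24, limma adjusted p 0.00156) and by 1.26 against C1+14 (0.000690). Dnmt3l, a cofactor of the de novo methyltransferases, was higher by 1.53 in FL and 1.08 in C1C3a, but within type A it was not called in FL against C1+14 (-0.15, limma adjusted p 0.706). In C1C3a it had 706 and 953 normalised reads, below the 1125 and 1393 of C1+14. RNA levels do not measure the proteins.

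For each member the 3 protein-coding genes in neither family list with the most similar pattern over the 14 chimera libraries were found by Pearson's r of log2(value + 1), as a description with no test. For Pramel6 they were Gm973 (0.97), Mbd4 (0.97) and Ints12 (0.96), which had r of 0.91, 0.90 and 0.94 over the 8 deletion libraries. For Pramel7 they were Hspa8, Mlxipl and Lap3 (0.97, 0.97 and 0.96), with 0.71, 0.70 and 0.83 over the deletion libraries. For Pramef17 they were Sephs2 (0.94), Sema3f (0.91) and Elobl (0.91), with 0.44, 0.64 and 0.90 there. Pramef8 was most like Selenos (0.96), Rbm12b2 (0.96) and Cbll1 (0.95), with r of -0.27, 0.67 and 0.52 over the deletion libraries. Pramef12 was most like Dtx1 (0.96), D630039A03Rik (0.96) and Ablim1 (0.96), at 0.91, 0.93 and 0.95 in the deletion libraries. The genes nearest to Pramef25 were Gm13057, Gm13043 and Gm13040, each with at least 99.3% of 50-base words shared with other genes, and Gm13043 is the gene that shares most sequence with Pramef25, so these are not independent of it. Those nearest to Pramef6 were AC140365.1, Gm4312 and AC163611.1. Gm4312 had 100% of its 50-base words shared with other genes, and AC140365.1 and AC163611.1 had no value for this. Hspa8 and Rbm12b2 shared 57.4% each, so their levels are uncertain too. Among the members themselves r was highest between Pramef6 and Pramef25 (0.99) and lowest between Pramef12 and Pramef25 (-0.88).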

How the data were processed

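Poly(A) RNA was sequenced from 22 samples in 11 groups, of which 20 libraries in 10 groups are used. Per the submitters' processing notes the authors used Trim Galore 0.5.0, FastQC and DESeq2 with mm10. The aligner, counter and annotation are not given in the sources used here. The authors deposited a signal, each gene's read count over 1 size factor for its library: 100% of 574693 values above 0 were whole reads within 0.02. Genes that reached a value of 10 in 2 or more libraries were tested with limma 3.58.1 (R 4.3.3; lmFit, eBayes with trend) on log2(value + 1), all groups of a table in 1 fit: 21584 genes in the chimera and 19833 in the deletion table. edgeR 4.0.16 and DESeq2 1.42.0 on recovered reads were alternatives; for FL against mCherry limma called 5290 genes higher and 4241 lower, edgeR 4852 and 4650, and DESeq2 5189 and 3805. Other alternatives were pseudocounts of 0.1 and 8, other filters, quantile normalization, size factors from genes without shared sequence, fits of 2 groups, a replicate block, library type as a term and each replicate left out. The limma script was run on simulated counts with few changed genes, a simpler case than these data, so that run checks the script only. Replicates differed by more than sampling noise (chi-square per degree of freedom 3.31 to 78.9). Shared sequence was taken from 1 in 5 of the 50-base words of GENCODE M21 transcripts. Windows from RefSeq were aligned with Biopython 1.88. Named genes are the 7 members, the 3 genes most like each, and up to 3 genes higher and 3 lower of each list in FL, C3+14 and C1C3a against mCherry. The members and lists were chosen with earlier results of these data known. The protein search planned for the family list was not made, as no protein table was used here.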

Additional observations from a re-analysis of the deposited data

How the results depend on the processing

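Of 1556 values of single genes under alternatives, 1478 kept their direction and their side of the threshold, 50 lost a call, 7 gained one and 21 changed sign. All 21 were differences that had not been called. Of 229 counts of called members, 218 stayed within 1.5 times the main count. In C1C3a against FL (6 called) the count was 3 to 6 with 1 replicate left out. In C12345delt14 against FL (1 called) it was 0 with a pseudocount of 0.1, 0 with no filter on low values, 2 with only the 2 groups fitted, and 0 to 1 with 1 replicate left out. In deltC12345+14 and in deltC12345delt14 against FL (5 called each) it was 3 to 5 and 3 to 4 with 1 replicate left out. The cause was not tested.

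The replicate block took that C12345delt14 count to 0 and changed no other count of called members by over 1.5 times. The labels do not say that numbers mark shared cultures, and replicate differences of 2 groups correlated at -0.10 to 0.05 in the chimera table and -0.57 to 0.14 in the deletion table. The lowest was between deltC12345+14 and deltC12345delt14, whose library types are crossed, and with type as a term 0 members were called there.

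Differences that changed sign, none of them called, were those of Pramel7 in C1C3b against C1+14 with quantile normalization (-0.39), of Pramef8 in deltC12345delt14 against FL with size factors from genes without shared sequence (-0.10), and of Pramef17 there with those size factors (-0.0046) and by DESeq2 (-0.047). With 1 replicate left out the range for Pramef17 was -0.78 to 0.84 in FL and -1.17 to 1.21 in C1C3c against mCherry, -0.80 to 1.58 in C1C3c against C1+14, -0.22 to 1.08 in deltC12345+14 against deltC12345delt14, and, against FL, -0.078 to 1.57 in C12345delt14, -0.22 to 1.43 in deltC12345+14 and -0.64 to 1.01 in deltC12345delt14. For Pramef12 it was -0.51 to 0.28 in C3+14 and -0.20 to 0.59 in C1C3a against FL, and -0.16 to 0.034 in deltC12345+14 against deltC12345delt14. For Pramel7 it was -2.75 to 0.58 in C1C3c against C1+14 and -1.20 to 1.45 in deltC12345+14 against deltC12345delt14, and for Pramef8 -0.047 to 0.22 in deltC12345delt14 against FL. Where a group was left with 1 library, that library was assumed to vary like the other groups. Low depth limits Pramel7, which had 12 reads or fewer in each C1C3b, C1C3c and C1+14 library.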

Other observations

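Among the relatives of the 7 genes, Pramel4 and Pramel5 differed strongly between the C1C3c libraries. Pramel4 had 0.754 normalised reads in replicate 1 and 1274 in replicate 2, against 131 and 77.4 in FL and 0 in both mCherry libraries. Pramel5 had 4.52 and 152 in the same C1C3c libraries. Pramel6 and Pramef17 went the other way there, with 307 and 614 in replicate 1 and 60.2 and 117 in replicate 2.

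The level of Pramef8 in C1+14 and the deltC12345 constructs was nearer to FL than that in mCherry was. As a percent of FL in the same table it was 377% in mCherry, 113% in C1+14, 88.5% in deltC12345+14 and 106% in deltC12345delt14. The mCherry libraries are both type B, and deltC12345+14 and deltC12345delt14 have 1 library of each type, at 276 and 305 and at 381 and 317 normalised reads (type A, then type B). Pramef20, a further relative, had 51.6 and 65.5 normalised reads in FL and 3.35 and 3.24 in C3+14, a log2 difference of -3.78 (SE 0.51, limma adjusted p 9.31e-05).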
